A study of Mus musculus with 16 samples.

Results

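The 4 mouse Hox clusters, with all 39 protein-coding Hox genes, were examined for H3K27ac and MyoD in cultured muscle stem cells. The genes were taken by symbol (Hoxa, Hoxb, Hoxc or Hoxd plus a number) from the RefSeq annotation of mm10, which lists 21631 protein-coding genes on chromosomes 1 to 19 and X. A window ran from 10 kb before the first to 10 kb after the last Hox gene of each cluster, and overlapping or touching peaks of an antibody's 4 libraries were joined into regions. The windows held 38 of the 59960 merged H3K27ac regions and 7 of the 24264 merged MyoD regions. The Hoxa window on chromosome 6 was 126 kb long with 11 genes, the Hoxb window on chromosome 11 was 194 kb with 10 genes, the Hoxc window on chromosome 15 was 136 kb with 9 genes, and the Hoxd window on chromosome 2 was 117 kb with 9 genes.

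The data were chromatin immunoprecipitation sequencing (ChIP-seq) of satellite cells, which are muscle stem cells, from the hindlimb of C57BL/6 mice. Both groups were cultured cells of that strain and cell type, given here as LncMyoD-KD (genotype label knockdown) and Ctrl (genotype label control). The treatment text names small interfering RNA against LncMyoD, a long noncoding RNA, for 48 h in every sample, controls included. A control is therefore known only from its title and genotype label, and the labels do not describe what controls received. Age and sex of the animals, and whether animals were pooled, are likewise not given in the labels. Each antibody had 2 LncMyoD-KD and 2 Ctrl libraries, and the 8 input samples were not analysed here. The labels do not say whether the libraries of a group came from separate animals or cultures, so every p-value below measures only the spread between libraries, which may be technical. An exact permutation test with 6 ways to assign 4 libraries cannot give a two-sided p below 0.333, so no comparison of groups could reach 0.05.

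The LncMyoD-KD libraries had 54008 and 39934 H3K27ac peaks and the Ctrl libraries 46207 and 52998, and covered 57.5 and 37.6 Mb in LncMyoD-KD and 47.2 and 53.3 Mb in Ctrl. LncMyoD-KD library 2 thus had the shortest H3K27ac list. The MyoD lists held 16440 and 13069 peaks in LncMyoD-KD and 17724 and 17558 in Ctrl. Satellite cell and myoblast markers carried H3K27ac over the gene body in all 4 lists for 8 of 8 genes, among them Pax7, Myf5, Myod1 and Myog, where 49.7% of all protein-coding genes did. Of the markers of other cell types, all 4 lists had H3K27ac at 1 of 3 fibro-adipogenic genes, 2 of 3 endothelial genes, 0 of 3 immune genes, 2 of 3 smooth muscle genes and 1 of 3 Schwann cell genes. These counts of 3 genes each are too small to set against that 49.7%. Pdgfra, Kdr, Ptprc, Adgre1, Myh11 and Sox10 had no H3K27ac peak in any list.

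Hox genes encode homeodomain transcription factors that give cells their position along the head-to-tail axis and along the limb. Within a cluster the genes lie in the order in which they act along the axis, from anterior genes with low numbers to posterior genes with high numbers, and genes with the same number in different clusters are paralogues. Trithorax-group proteins keep Hox chromatin active and Polycomb-group proteins keep it silent, often over long stretches that hold several genes. H3K27ac marks active promoters and enhancers, and MyoD is the basic helix-loop-helix factor of the myogenic lineage that binds E-boxes (CANNTG). Adult limb muscle stem cells are known to retain part of the Hox code of their origin.

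The clusters also encode miR-615 and microRNAs of the miR-196 and miR-10 families, and the mature 5′ arms of these families are shown because their loci fall on both sides of the acetylation boundaries. The sequences are from RefSeq (GRCm38.p6, the mm10 assembly), written 5′ to 3′ with the seed, bases 2 to 8, in capitals. The seed was the same in the miR-196 products of the Hoxa, Hoxb and Hoxc clusters and the same in the miR-10 products of the Hoxb and Hoxd clusters.
miR-196b-5p, Hoxa cluster, chr6:52230129-52230150, minus strand: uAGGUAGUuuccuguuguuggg
miR-196a-5p, from Mir196a-2 in the Hoxc cluster, chr15:102973365-102973386, plus strand, and from Mir196a-1 in the Hoxb cluster, chr11:96265187-96265208, plus strand: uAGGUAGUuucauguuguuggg
miR-10a-5p, Hoxb cluster, chr11:96317186-96317208, plus strand: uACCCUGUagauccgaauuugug
miR-10b-5p, Hoxd cluster, chr2:74726074-74726096, plus strand: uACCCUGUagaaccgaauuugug
Mir196b and Mir196a-2 lay wholly under H3K27ac peaks in all 4 lists. Mir196a-1, which encodes the same mature 5′ arm as Mir196a-2, had no H3K27ac peak in any list, and neither did Mir10a or Mir10b.

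H3K27ac divided the 4 clusters sharply. The Hoxc and Hoxa clusters carried broad acetylated stretches around their central and posterior genes, the Hoxd cluster had 2 weak regions, and the Hoxb cluster had none. Over the gene bodies, 12 of 39 Hox genes (30.8%) had an H3K27ac peak in all 4 lists, against 49.7% of all protein-coding genes and 43.4% of those no longer than the longest Hox gene. A further 21 Hox genes (53.8%) had no peak in any list, against 41.1% of all protein-coding genes. The remaining 6 genes had a peak in 1 to 3 lists. The longest Hox gene, Hoxa3, has a body of 44.0 kb, and most Hox bodies are far shorter. None of these shares of other genes is thus matched to the length of the Hox genes. Measured over the windows rather than by gene, the marked part was dense: the 38 regions amount to 66.4 per Mb, against 37.1 per Mb over all protein-coding genes with 10 kb either side, and covered 19.2% of the windows, against 4.30% of that sequence. This density came from the Hoxa and Hoxc windows, with 159 and 118 regions per Mb. Of the 38 regions, 14 were present in all 4 lists. Their number was 19 when peaks within 1000 bp were merged and 24 when weak peaks were left out (−log10 q under 5). No density around genes is given for these settings. Without LncMyoD-KD library 2 the number of Hox genes with a peak in every remaining list was 15, a count that leaving out a list cannot lower. A ChIP signal of a bulk culture cannot tell apart fewer cells with the mark from less mark in each cell.

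**Figure D1:**
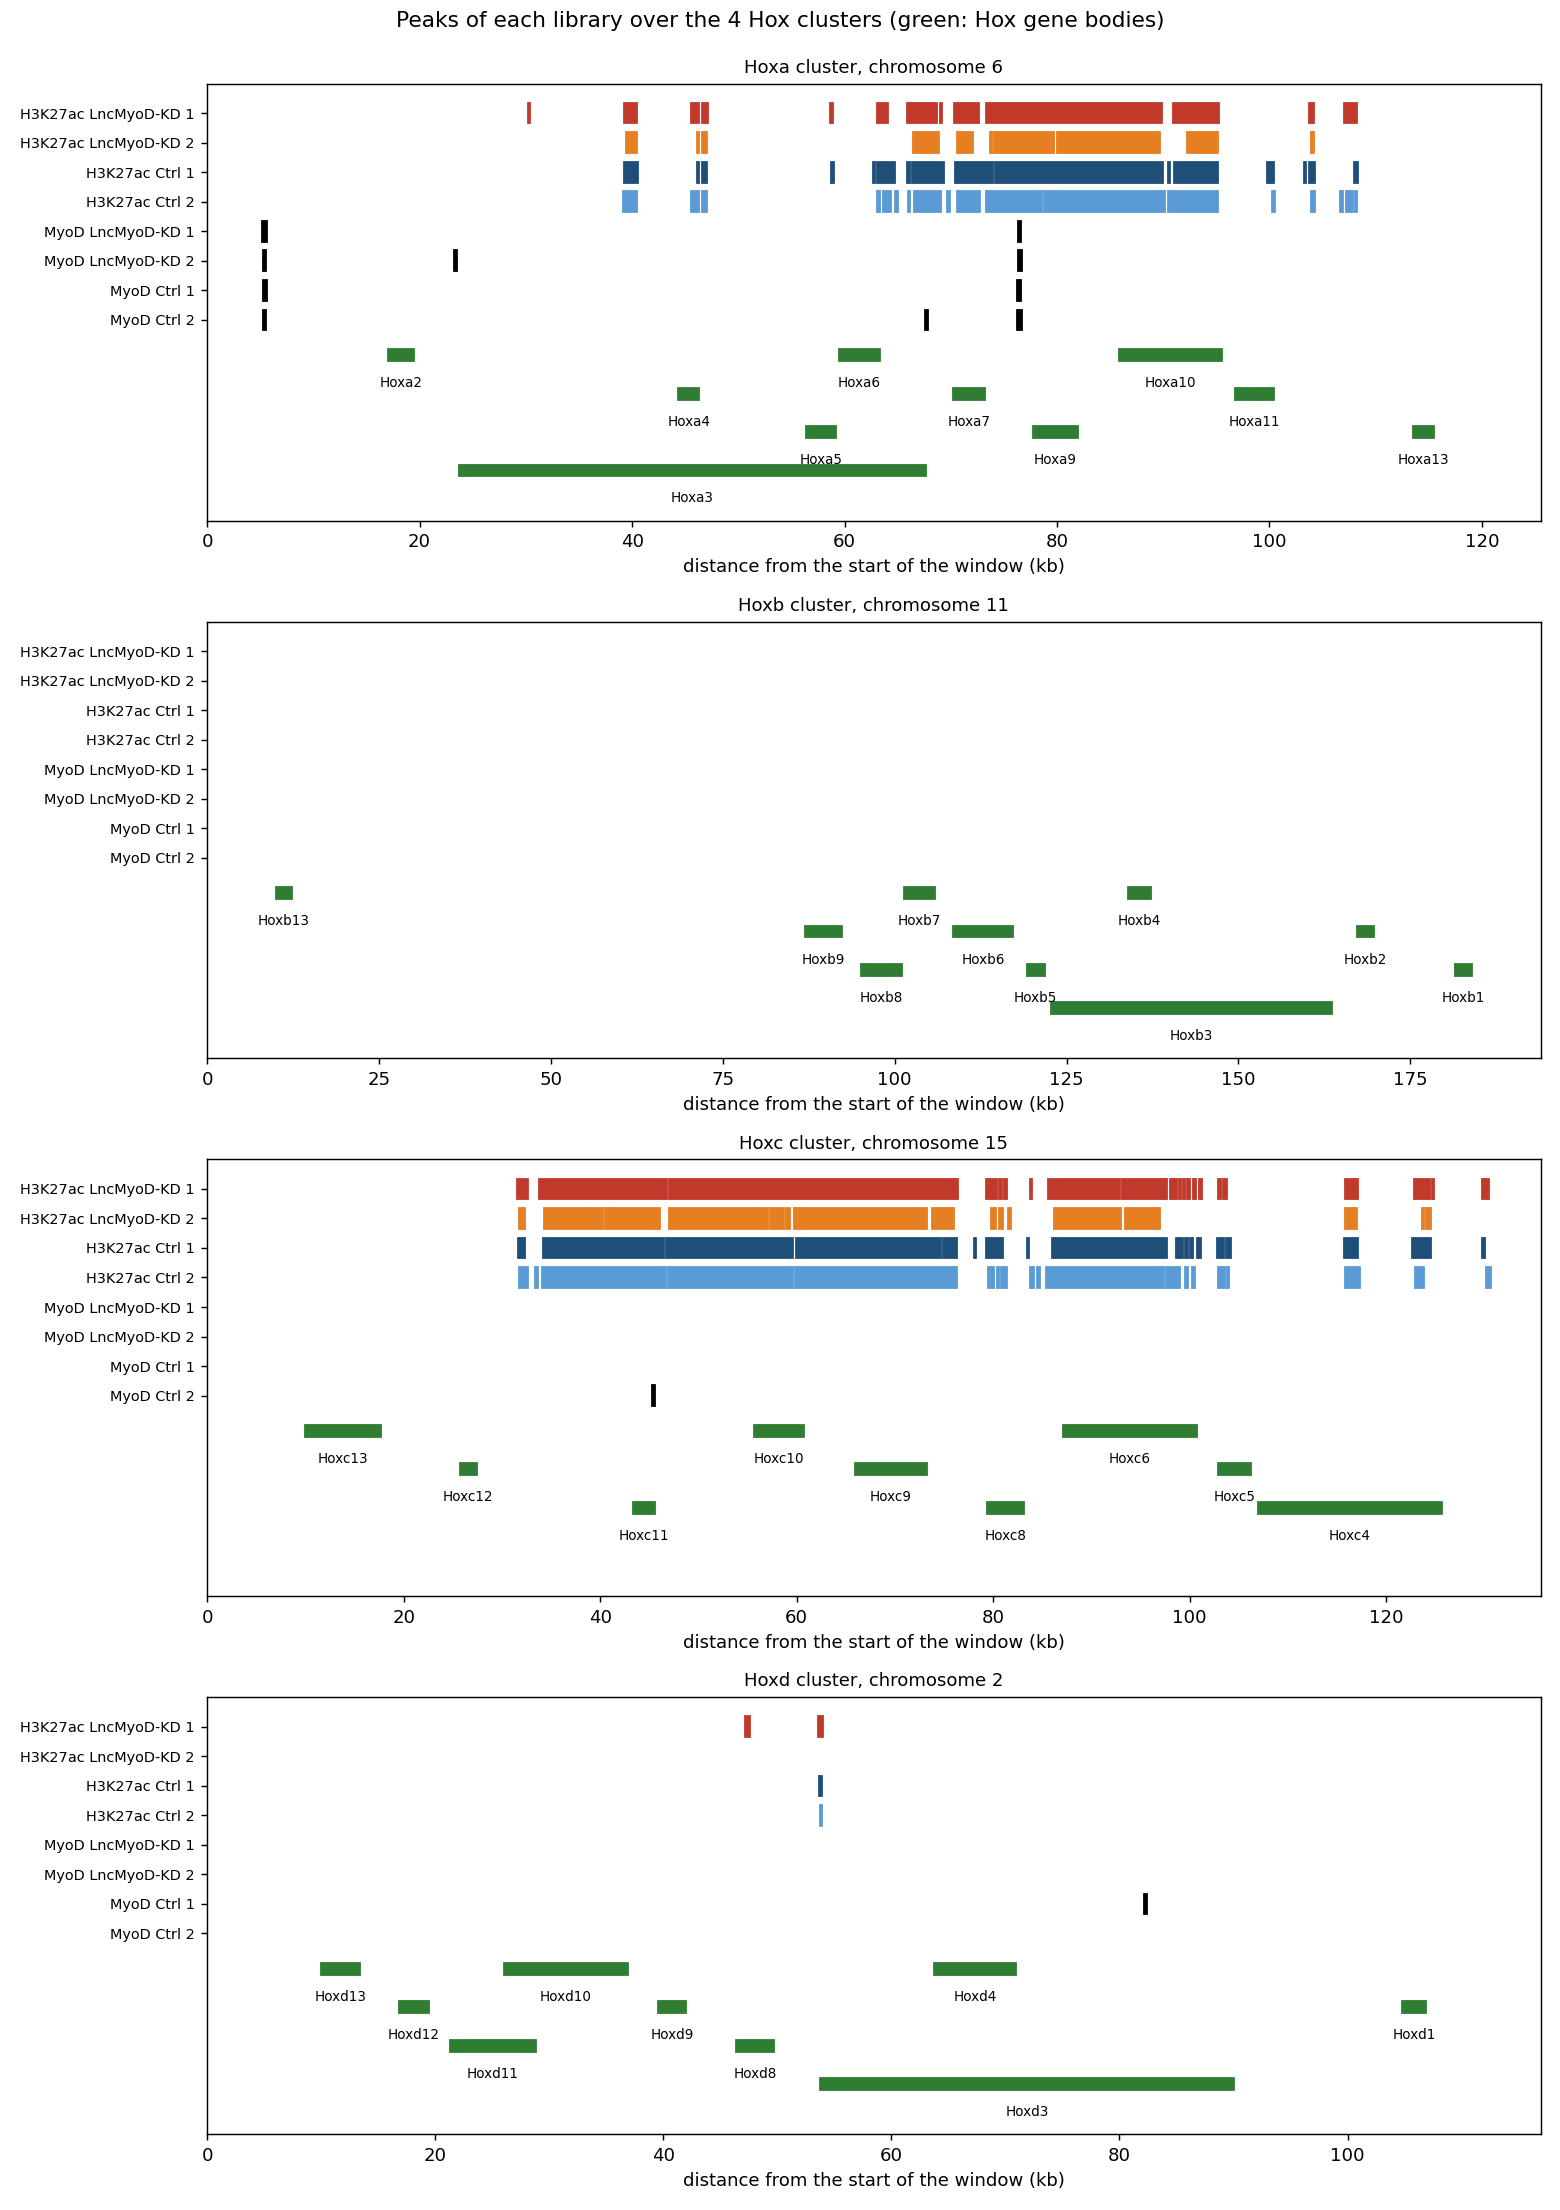
Position of the deposited peaks over and between the Hox genes drawn, by library, against the distance in kb from the start of each window; upper rows are H3K27ac peaks of the LncMyoD-KD and Ctrl libraries, black marks are MyoD peaks, and green boxes are Hox gene bodies. H3K27ac lies over Hoxa7 to Hoxa10 and over Hoxc11 to Hoxc6 in all 4 libraries, while the Hoxb panel has no peak and the Hoxd panel has H3K27ac at 2 places.

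Posterior genes of the Hoxc cluster lay under the widest H3K27ac region of the genome as merged here. Hoxc11, Hoxc10 and Hoxc9, from the paralogue groups that pattern the trunk from the thorax down and the limb, shared a single region of 42.6 kb at chr15:102944954-102987544, which ranked 1 by width among the 59960 H3K27ac regions. Peaks covered 99.6% and 89.7% of this region in the LncMyoD-KD libraries and 97.3% and 98.0% in the Ctrl libraries. It consisted of 2 and 15 separate peaks in LncMyoD-KD and of 4 and 4 in Ctrl. The stretch was thus nearly filled in every library, but LncMyoD-KD library 2 broke it into more pieces. The widest single peak in it measured 29.4 and 10.95 kb in LncMyoD-KD and 14.8 and 16.5 kb in Ctrl, with ranks by width in its own list of 2 and 28 in LncMyoD-KD and 21 and 15 in Ctrl. The width of the merged region rested partly on 2 libraries, since it fell to 16.6 kb and rank 26 without LncMyoD-KD library 1 and to 29.5 kb and rank 5 without Ctrl library 1, and the rank was 4 when peaks within 1000 bp were merged.

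Hoxc11 was covered over 100% of its body in all 4 lists. Hoxc9 was covered over 100% and 98.5% of its body in LncMyoD-KD, and over 100% in both Ctrl lists. Hoxc10, a gene of the hindlimb and lumbar level, had 100% and 80.3% of its body under peaks in LncMyoD-KD and 94.5% and 97.1% in Ctrl. The long noncoding RNA gene Hotair, which lies between Hoxc12 and Hoxc11, had 77.0% and 65.7% of its body covered in LncMyoD-KD and 66.6% and 76.7% in Ctrl. The broad region ended within Hotair, and a smaller one of 1125 bp, 4105 bp from Hoxc12, was also present in all 4 lists. The bodies of the most posterior genes had no peak. Hoxc13, known for its role in hair and nails, and Hoxc12 lay wholly in a stretch of 31.6 kb with no H3K27ac peak in any list (chr15:102911131-102942713).

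Towards the anterior end of the Hoxc cluster the acetylation continued and then thinned. Hoxc6, a central gene of the forelimb and upper trunk level, lay in a second broad region of 15.3 kb (chr15:102996531-103011818), width rank 43, and had 87.4% and 69.8% of its body covered in LncMyoD-KD and 87.2% and 90.1% in Ctrl. The highest fold enrichment of a peak over background in this region, as the authors' caller gave it, was 16.7 and 12.9 in LncMyoD-KD and 14.7 and 12.4 in Ctrl. Hoxc8, between both broad regions, overlapped the third widest region of the cluster, 2204 bp long (chr15:102990395-102992598), and was covered over 45.0% and 32.2% in LncMyoD-KD and 41.6% and 40.6% in Ctrl. Both central genes were acetylated in every library, with coverage lowest in LncMyoD-KD library 2. Their highest fold enrichment was instead lowest in Ctrl library 2, for Hoxc8 5.09 and 4.72 in LncMyoD-KD and 5.02 and 3.92 in Ctrl. Hoxc5 had 20.7% and 0% of its body covered in LncMyoD-KD and 31.6% and 25.98% in Ctrl. Hoxc4, the most anterior gene of the cluster, had 16.6% and 10.2% in LncMyoD-KD and 17.8% and 12.8% in Ctrl. The stretches with no H3K27ac here were short, the next widest being 11.6 kb from Hoxc5 into Hoxc4 and 5.30 kb inside Hoxc4.

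In the Hoxa cluster the acetylated core held Hoxa7, Hoxa9 and Hoxa10. These are a central gene and a pair of posterior genes, of which Hoxa9 acts in blood cells and has been studied in aged muscle stem cells, and Hoxa10 acts in the limb and the uterus. They shared a region of 19.8 kb (chr6:52215694-52235512), width rank 23 of all H3K27ac regions, whose highest fold enrichment was 13.8 and 14.9 in LncMyoD-KD and 13.01 and 14.8 in Ctrl. A second region of 4.33 kb (chr6:52236272-52240600), also over Hoxa10, reached 14.6 and 11.3 in LncMyoD-KD and 10.97 and 13.3 in Ctrl. Both regions were present in all 4 lists. Hoxa9 was covered over 100% and 90.3% of its body in LncMyoD-KD and 100% and 95.7% in Ctrl. Hoxa10 was covered over 87.2% and 70.1% in LncMyoD-KD and 87.1% and 92.9% in Ctrl. Hoxa7 was covered over 80.0% and 50.1% in LncMyoD-KD and 96.2% and 72.1% in Ctrl, so that the groups overlapped.

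The anterior Hoxa genes were marked in narrower regions. Hoxa3, a gene of the pharyngeal arches and their glands, has a body of 44.0 kb that contains Hoxa4, Hoxa5 and Hoxa6, so peaks over these 3 genes count for Hoxa3 as well. It was covered over 13.3% and 6.18% in LncMyoD-KD and 13.4% and 11.7% in Ctrl. Among the nested genes, Hoxa4 had 39.9% and 9.35% in LncMyoD-KD and 10.4% and 29.9% in Ctrl, a wide spread within both groups. Hoxa5, a gene of the lung and rib cage, had a peak in 1 list of each group, and Hoxa6 had one in LncMyoD-KD library 1 and in both Ctrl lists. The body of Hoxa2, the selector gene of the second pharyngeal arch, had no H3K27ac in any list and lay in a stretch of 14.5 kb without it.

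At the posterior end of the Hoxa cluster acetylation stopped before Hoxa13. Hoxa13, the gene of the digits and the urogenital tract, lay with the noncoding RNA gene Hottip in the widest unacetylated stretch of the window, 17.1 kb long (chr6:52253738-52270880). Hoxa11, which acts in the forearm and lower leg and in the uterus, had no H3K27ac peak over its body in either LncMyoD-KD list, against 16.8% and 6.07% of its body in Ctrl. The fold enrichment of those Ctrl peaks was low, 3.72 and 4.73.

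The Hoxb cluster had no H3K27ac peak in any of the 4 lists over its whole window of 194 kb (chr11:96184316-96378254). All 10 genes were included, from Hoxb1, a gene of a hindbrain segment, to Hoxb13, a gene of the tail and prostate. No MyoD peak lay in the window in any list. Windows of the same length centred on each protein-coding gene had no H3K27ac region in 16.8% of cases and no MyoD region in 23.3%, so an empty window of this length was not rare. The depth of the libraries is unknown, so this says that no peak was called, and not that the mark was absent.

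In the Hoxd cluster, whose posterior genes build the digits and the distal limb, peaks were few and weak. A region of 469 bp at the start of Hoxd3 (chr2:74711764-74712232) had a fold enrichment of 3.27 in LncMyoD-KD library 1, no peak in LncMyoD-KD library 2, and 3.16 and 2.96 in Ctrl. A region of 462 bp in Hoxd8 (chr2:74705356-74705817) had a peak in LncMyoD-KD library 1 alone, with a fold enrichment of 4.0. These were the 2 H3K27ac regions of the cluster. Hoxd13, Hoxd12, Hoxd11, Hoxd10 and Hoxd9 lay wholly in a stretch of 47.1 kb with no peak in any list, and Hoxd4 and Hoxd1 in one of 62.9 kb. The third stretch, 5.95 kb, lay between the 2 regions.

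**Figure D2:**
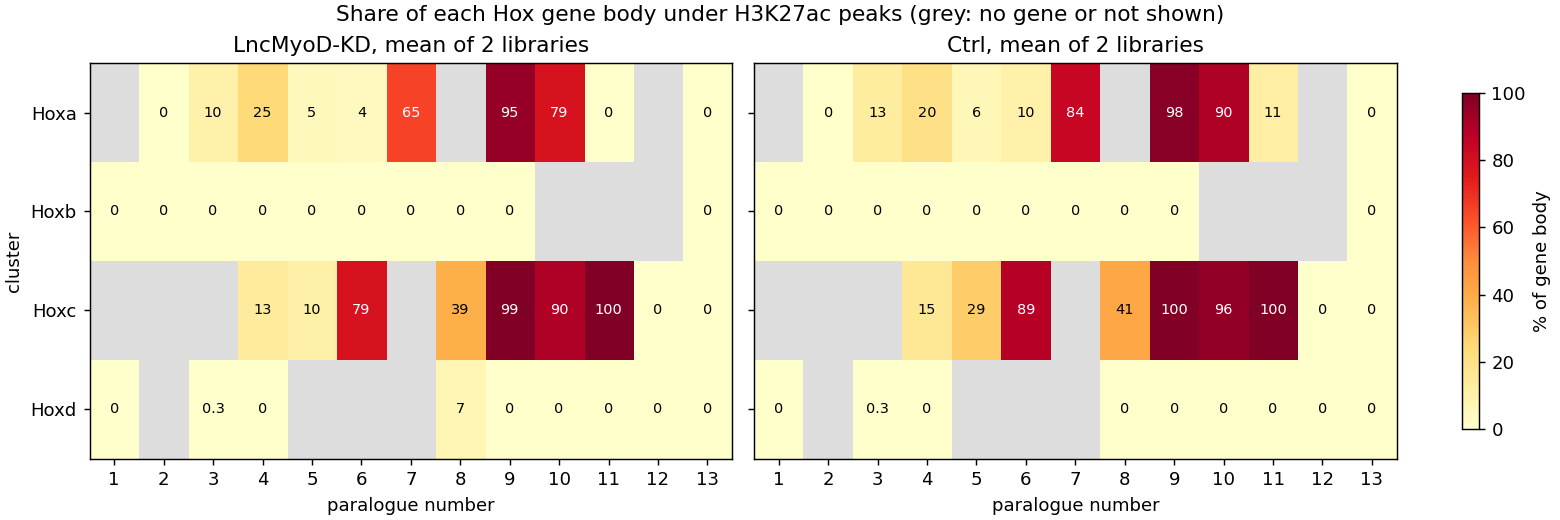
Percent of each Hox gene body under H3K27ac peaks, as the mean of the 2 LncMyoD-KD libraries (left) and of the 2 Ctrl libraries (right), with clusters in rows and paralogue numbers in columns; grey squares have no gene or are not shown. The darkest squares are paralogues 9 and 10 of Hoxa, paralogues 9 to 11 and 6 of Hoxc and Hoxa7, and the Hoxb row is 0 throughout in both groups.

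Counted by position along the axis, H3K27ac was present in all 4 lists at 2 of 8 anterior genes (numbers 1 to 3), 5 of 15 central genes (4 to 8) and 5 of 16 posterior genes (9 to 13). Counted by cluster, it was present at 6 of 11 Hoxa, 0 of 10 Hoxb, 6 of 9 Hoxc and 0 of 9 Hoxd genes. Over all protein-coding genes the share was 49.7%, and the Hoxa share of 54.5% was close to it. Paralogues with the same number differed between clusters. Paralogue 9 was acetylated in all 4 lists in Hoxa and Hoxc and in no list in Hoxb and Hoxd. Paralogue 10 was acetylated in Hoxa and Hoxc and not in Hoxd. Paralogue 13 had no peak in any list in any of its 4 copies. These are counts of neighbouring genes that share regions, not independent cases.

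Promoters of 2 paralogue pairs are shown because they fall on opposite sides of this divide or carry the weaker signal. Each is the 250 bases before the annotated start, from the RefSeq promoter table (GRCm38.p6), 5′ to 3′ on the gene's strand, with E-boxes (CANNTG, which reads the same pattern on both strands) in capitals.
Hoxa9, chr6:52227371-52227620, minus strand: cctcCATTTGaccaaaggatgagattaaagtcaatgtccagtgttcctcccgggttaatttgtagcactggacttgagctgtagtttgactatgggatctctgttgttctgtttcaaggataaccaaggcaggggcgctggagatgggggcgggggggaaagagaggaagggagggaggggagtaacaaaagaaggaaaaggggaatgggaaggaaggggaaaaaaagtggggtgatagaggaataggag
Hoxd9, chr2:74697513-74697762, plus strand: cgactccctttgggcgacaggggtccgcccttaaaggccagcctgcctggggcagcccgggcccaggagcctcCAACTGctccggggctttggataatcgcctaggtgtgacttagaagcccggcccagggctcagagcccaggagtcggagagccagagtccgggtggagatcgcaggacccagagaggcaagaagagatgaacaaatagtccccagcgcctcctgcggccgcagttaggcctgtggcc
Hoxa3, chr6:52213068-52213317, minus strand: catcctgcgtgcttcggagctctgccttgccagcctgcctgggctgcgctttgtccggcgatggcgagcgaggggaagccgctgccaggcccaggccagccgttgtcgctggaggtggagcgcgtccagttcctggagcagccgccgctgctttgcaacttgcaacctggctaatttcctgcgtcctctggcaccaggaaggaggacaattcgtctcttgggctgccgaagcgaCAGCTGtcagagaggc
Hoxd3, chr2:74711743-74711992, plus strand: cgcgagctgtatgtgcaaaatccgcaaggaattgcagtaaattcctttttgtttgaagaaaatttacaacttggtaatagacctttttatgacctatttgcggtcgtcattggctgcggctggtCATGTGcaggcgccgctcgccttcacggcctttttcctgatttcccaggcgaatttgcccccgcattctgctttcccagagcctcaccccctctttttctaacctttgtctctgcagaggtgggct
The Hoxa9 and Hoxa3 promoters overlapped an H3K27ac peak in 4 lists, the Hoxd3 promoter in 3 lists and the Hoxd9 promoter in 0. Each of the 4 held 1 E-box. The one in Hoxa3 is CAGCTG, at position -16 from the start, and a MyoD peak of Ctrl library 2 overlapped this promoter.

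The promoter table held 24 promoters of 22 Hox genes, taken as the 250 bases before to 50 after the start for overlap with peaks and as the 250 bases before it for sequence. H3K27ac peaks of at least 3 lists overlapped 7 of them, and 16 overlapped none. No share over all promoters of the table is given here for these counts. Of the Hoxc genes the table held Hoxc4 alone, and of the Hoxb genes Hoxb1, Hoxb4 and Hoxb8. The genes under the broad Hoxc regions are therefore not among these promoters. Among the promoters in the table, base composition was similar in both sets. Median GC content was 59.2% in the 7 and 58.6% in the 16, and the median number of CpG was 12 and 12.5. The 16 include 1 of the 2 promoters of Hoxa10, a gene with H3K27ac over its body in all 4 lists. An E-box was present in 4 of the 7 and in 12 of the 16. Over all Hox promoters 70.8% held an E-box, against 66.2% of the 32851 promoters in the table, and 3 of 24 held CAGCTG, against 4271 of 32851. A match is only a run of letters in this window.

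The broad regions over Hoxc11 to Hoxc9, Hoxc6 and Hoxa7 to Hoxa10 had peaks in both LncMyoD-KD and both Ctrl lists, and coverage by peaks was compared between the groups cluster by cluster. The Hoxa window was covered by H3K27ac peaks over 27.4% and 20.1% of its length in LncMyoD-KD and 28.2% and 27.6% in Ctrl, with means of 23.8% ± 5.12 and 27.9% ± 0.408 (SD, n = 2 each). Both LncMyoD-KD values lay below both Ctrl values, but library 1 by little, and the difference of -4.10 percentage points had an exact permutation p of 0.333, the smallest this test can give. It was -0.48 without LncMyoD-KD library 2 and -7.72 without LncMyoD-KD library 1. The Hoxc window was covered over 47.0% and 38.6% in LncMyoD-KD and 46.0% and 46.4% in Ctrl, so that the groups overlapped (difference -3.42 percentage points, exact permutation p = 1, and 0.813 without LncMyoD-KD library 2, -7.66 without LncMyoD-KD library 1). The Hoxd window was covered over 0.796% and 0% in LncMyoD-KD and 0.173% and 0.156% in Ctrl, a difference of 0.234 percentage points that was -0.164 without LncMyoD-KD library 1 and 0.632 without LncMyoD-KD library 2.

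Over all 4 windows, coverage was 17.3% and 13.6% in LncMyoD-KD and 17.1% and 17.1% in Ctrl. The difference of -1.66 percentage points (exact permutation p = 1) was set by LncMyoD-KD library 2, the library with the shortest list, and was 0.217 without it and -3.55 without LncMyoD-KD library 1. The Hox windows made up 0.172% and 0.207% of all bases covered in the LncMyoD-KD lists and 0.207% and 0.184% in the Ctrl lists, so the Hox share of that library's own list was not low. With all lists cut to an equal number of peaks, coverage was 16.9% and 13.6% in LncMyoD-KD and 16.7% and 16.4% in Ctrl, a difference of -1.31 percentage points. A Hox gene body had an H3K27ac peak for 17 and 12 of the 39 genes in LncMyoD-KD and 17 and 16 in Ctrl, where it did for 58.0% and 50.3% of all protein-coding genes in LncMyoD-KD and 55.6% and 55.3% in Ctrl. The difference was -2 (exact permutation p = 1), which became 0.5 without LncMyoD-KD library 2 and -4.5 without LncMyoD-KD library 1. The 5 genes with a peak in LncMyoD-KD library 1 but not in library 2 were Hoxa5, Hoxa6, Hoxc5, Hoxd3 and Hoxd8.

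**Figure D3:**
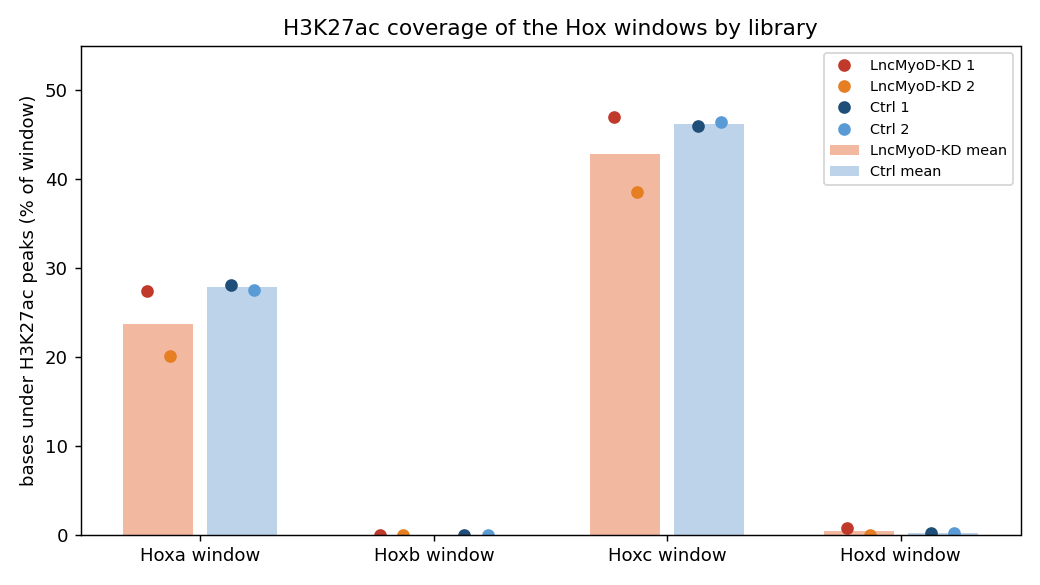
Percent of each Hox window under H3K27ac peaks; points are single libraries and bars are the means of the 2 LncMyoD-KD and the 2 Ctrl libraries. LncMyoD-KD library 2 is the lowest point in the Hoxa window (20.1%) and in the Hoxc window (38.6%), while LncMyoD-KD library 1 (27.4% and 47.0%) lies close to both Ctrl libraries in each.

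Regions found in one group alone were rare. Of the 38 H3K27ac regions, 2 had a peak in both Ctrl libraries and in neither LncMyoD-KD library, where this held for 1.46% of all H3K27ac regions. Both lie in the posterior part of the Hoxa cluster. One of 493 bp lies in Hoxa10 (chr6:52235771-52236263), in a gap of the broad acetylated stretch, with fold enrichments of 2.79 and 4.14 in Ctrl. The other of 703 bp is the region in Hoxa11 (chr6:52245138-52245840) described above. The region in Hoxa10 was not group-specific when weak peaks were left out (−log10 q under 5), when lists were cut to equal length or when peaks within 1000 bp were merged, whereas the region in Hoxa11 kept its call under these 3 settings. Neither was called when peaks had to cover 50% of the region. No Hox region had a peak in both LncMyoD-KD libraries and in neither Ctrl library, where this held for 0.769% of all regions. Leaving out 1 library gave 2 to 11 regions of the Ctrl kind, with 11 without LncMyoD-KD library 1, 8 without Ctrl library 1 and 6 without Ctrl library 2. It gave 0 to 3 of the LncMyoD-KD kind, with 3 without LncMyoD-KD library 2 and 1 without LncMyoD-KD library 1. With 1 library fewer the rule asks for less, so these counts can rise for that reason alone. Their shares over all regions were not recomputed.

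Fold enrichments of different lists are not on one scale, so regions were set side by side by the percentile of their highest fold within each list. The lists differ in length, so a difference in percentile alone shows no change. Of the 38 H3K27ac regions 14 were present in all 4 lists, where this held for 43.6% of all regions. Of these 14, 3 had both LncMyoD-KD percentiles below both Ctrl percentiles, against 13.1% of all such regions, and 1 had both above, against 9.41%. The region that ranked higher in LncMyoD-KD was the broad one over Hoxc11, Hoxc10 and Hoxc9, at percentiles 94.5 and 95.6 in LncMyoD-KD and 94.2 and 92.2 in Ctrl, a narrow range. It did not rank higher with lists of equal length. The regions that ranked lower were one at the start of Hoxa3 (chr6:52211755-52214698), at 80.9 and 72.5 in LncMyoD-KD and 84.7 and 84.3 in Ctrl, one near Hoxa11 and one in Hoxc4. The region 3280 bp from Hoxa11 (chr6:52249090-52249668) was at 10.8 and 3.52 in LncMyoD-KD and 21.4 and 18.2 in Ctrl. The region in Hoxc4 (chr15:103033790-103035715) was at 45.7 and 19.4 in LncMyoD-KD and 49.3 and 61.2 in Ctrl. The region near Hoxa11 no longer ranked lower with the stricter q (−log10 q of at least 5) or with lists of equal length, the one in Hoxc4 with the stricter q or when peaks had to cover 50% of the region, and the one at Hoxa3 when peaks within 1000 bp were merged. The counts changed when 1 library was left out, but the rule then compares fewer percentiles, so they can rise for that reason alone. Shares over all such regions were not recomputed for these settings. The number ranked higher was 9 without LncMyoD-KD library 2, 4 without Ctrl library 1 and 2 without LncMyoD-KD library 1 or Ctrl library 2. The number ranked lower was 9 without LncMyoD-KD library 1 and 6 without Ctrl library 1. The median percentile of the Hox peaks was 44.1 and 57.2 in LncMyoD-KD and 42.1 and 47.3 in Ctrl (difference 5.92, exact permutation p = 0.667, and -0.67 without LncMyoD-KD library 2, 12.5 without LncMyoD-KD library 1). Its direction turned to -5.37 with the stricter q and to -3.16 with lists of equal length.

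**Figure D4:**
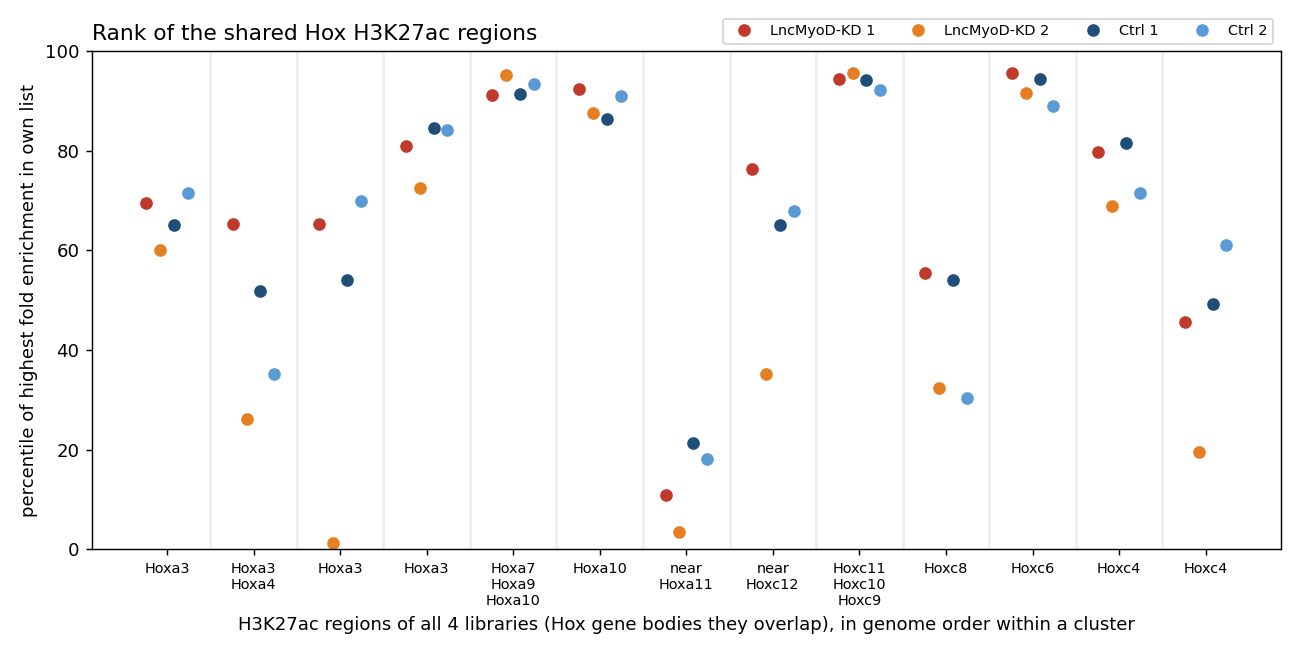
Percentile of the highest fold enrichment within its own list for 13 of the 14 Hox H3K27ac regions found in all 4 libraries, one column per region, with a point for each LncMyoD-KD and Ctrl library. The broad regions over Hoxc11 to Hoxc9 and over Hoxa7 to Hoxa10 and the one over Hoxc6 lie at percentile 88.9 or above in all libraries, and the regions over Hoxa4 and Hoxc8 spread widely within both groups.

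MyoD was found at few places in the Hox clusters. No Hox gene body had a MyoD peak in all 4 lists, where 17.2% of all protein-coding genes did, and 4 Hox genes had one in some list. The 7 MyoD regions, of any list, amount to 12.2 per Mb of window, against 12.9 per Mb over all protein-coding genes with 10 kb either side. That pooled density was close to the one around genes at large, but most of these regions had a peak in a single list. By window it was 39.8 per Mb in Hoxa, 0 in Hoxb, 7.37 in Hoxc and 8.55 in Hoxd. MyoD regions covered 0.379% of the windows, against 0.534% of the sequence around genes. Of the 7 regions 2 were present in all 4 lists, where 40.8% of all MyoD regions were. Both lie in the Hoxa cluster, outside gene bodies.

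The first (chr6:52150564-52150989) lies at the anterior edge of the cluster and overlaps no H3K27ac peak. It had a fold enrichment of 8.10 and 5.49 in LncMyoD-KD and 8.59 and 4.64 in Ctrl, at percentiles 63.9 and 27.4 in LncMyoD-KD and 70.3 and 16.9 in Ctrl. The second (chr6:52221611-52222029) lies between Hoxa7 and Hoxa9, 1068 bp from Hoxa9 and inside the acetylated stretch of 19.8 kb. It had a fold enrichment of 7.74 and 10.6 in LncMyoD-KD and 7.93 and 9.60 in Ctrl, at percentiles 60.4 and 81.7 in LncMyoD-KD and 65.2 and 77.5 in Ctrl. In both regions the percentiles of the groups overlapped, with a wider spread within each group than between the group means. Of all MyoD regions present in all 4 lists, 76.4% overlapped an H3K27ac region of all 4 lists, as 1 of these 2 did.

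The other 5 MyoD regions had a peak in a single list each. Among them were one 190 bp from Hoxa3 (LncMyoD-KD library 2, fold enrichment 5.09), one at the start of Hoxa3 (Ctrl library 2, 5.63), one in Hoxc11 (Ctrl library 2, 4.97) and one in Hoxd3 (Ctrl library 1, 4.30). The Hox windows held 3 and 3 MyoD peaks in LncMyoD-KD and 3 and 4 in Ctrl (difference -0.5, exact permutation p = 1, -1 without Ctrl library 1, 0 without Ctrl library 2 and 0.5 with lists of equal length). No MyoD region was found in both libraries of one group and neither of the other. Over all MyoD regions this held for 4.55% in the Ctrl direction and 0.729% in the LncMyoD-KD direction. Leaving out Ctrl library 1 gave 2 regions of the Ctrl kind and leaving out Ctrl library 2 gave 1, while leaving out either LncMyoD-KD library gave 1 of the LncMyoD-KD kind. Here too the rule asks for less with 1 library fewer, and the shares over all MyoD regions were not recomputed.

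Of 11 other transcripts annotated in or beside the clusters, 4 had H3K27ac in all 4 lists (Hotair, Hotairm1, Mir196a-2 and Mir196b) and 6 in none (Evx1, Evx2, Hottip, Mir10a, Mir10b and Mir196a-1). Evx1 and Evx2 are homeobox genes that lie beyond Hoxa13 and Hoxd13, next to the unacetylated posterior ends of those clusters. Mir615, in Hoxc5, had a peak in LncMyoD-KD library 1 and in both Ctrl lists, over 10.9% of its hairpin in LncMyoD-KD library 1 and 100% and 52.2% in Ctrl. None of the 11 had a MyoD peak.

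Cofactors and chromatin regulators of Hox genes were mostly acetylated. TALE homeodomain proteins (Pbx, Meis and Pknox), which bind DNA together with Hox proteins, had H3K27ac over the gene body in all 4 lists for 8 of 9 genes and MyoD for 5 of 9, where 49.7% of all protein-coding genes had H3K27ac and 17.2% had MyoD in all 4 lists. The exception for H3K27ac was Meis3, with a peak in 1 list of each group. Pknox2 held 34 H3K27ac and 13 MyoD regions over its 256 kb, with a highest H3K27ac fold enrichment of 27.5 and 24.6 in LncMyoD-KD and 25.7 and 30.5 in Ctrl. Of the 66 H3K27ac regions over TALE genes, 2 were found in both LncMyoD-KD libraries alone, 1 in Pknox1 and 1 in Pknox2, and 0 in both Ctrl libraries alone, against 0.769% and 1.46% of all H3K27ac regions. Long genes have more room for a peak, so these counts are not set against the Hox genes by a test.

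The caudal genes Cdx1, Cdx2 and Cdx4, which activate Hox genes in the early embryo, had no H3K27ac or MyoD peak in any list. Over all protein-coding genes 41.1% had no H3K27ac peak in any list, and 3 genes are too few to set against that share. Trithorax and MLL complex genes, which keep Hox genes active, had H3K27ac in all 4 lists for 5 of 6 and MyoD for 1 of 6, beside the same 49.7% and 17.2% of all protein-coding genes. Men1, the menin gene, was the exception for H3K27ac, with no peak in LncMyoD-KD library 2. Kmt2a, the MLL1 gene, had 1 H3K27ac region found in both Ctrl libraries alone, and Kmt2a and Kmt2b had 1 such MyoD region each. This is 1 of 19 H3K27ac and 2 of 4 MyoD regions over these genes, where 1.46% and 4.55% of all regions were of this kind. So few regions are too small a count to set against those shares, and their calls were not recomputed under other settings. The highest MyoD fold enrichment over Kmt2a was low, 4.42 in LncMyoD-KD library 1 and 4.30 and 4.97 in Ctrl. Polycomb genes, which keep Hox genes silent, had H3K27ac in all 4 lists for 11 of 13 and MyoD for 4 of 13, again beside 49.7% and 17.2%. None of their 28 H3K27ac and 12 MyoD regions was found in one group alone. Over all regions, Ctrl alone made up 1.46% for H3K27ac and 4.55% for MyoD, and LncMyoD-KD alone 0.769% and 0.729%. At such shares so few regions may well include none. The exceptions for H3K27ac were Cbx2 and Cbx8, with a peak in 1 list of each group.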

How the data were processed

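Per the labels' protocols, antibody-bound chromatin was tagmented, amplified and sequenced as read pairs, with 2 LncMyoD-KD and 2 Ctrl libraries for each antibody. The submitters' processing notes name mm10, MACS2 2.1.1, Bowtie2 2.3.2, bedtools 2.26.0, Picard 2.9.2 and SAMtools 1.3, without options or roles. The authors deposited 1 peak list per ChIP library, called per library and not on pooled replicates. Each deposited peak has a fold enrichment over background, a linear ratio, which was used to rank peaks within a list. The deposited −log10 q value of each peak was used in a stricter alternative, and no deposited peak was below 1.30. The authors' deposited −log10 p value and whole-number score were not needed for any result. No read counts were used, so depth is unknown and gives no interval.

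Peaks on chromosomes 1 to 19 and X were kept, leaving out 552. Peaks of the 4 lists of an antibody were merged with a gap of 0 bp, and 1 shared base counted as overlap. Coverage is the share of bases under peaks. Gene bodies are whole RefSeq gene spans, and they may overlap. Groups were compared with an exact permutation test (two-sided, 6 assignments of libraries) without a replicate block. All 39 Hox genes are in the counts, but 1 of them and 1 marker gene are not reported singly here. Regions named are all MyoD regions, all regions of one group alone, and the 3 widest H3K27ac regions and unacetylated stretches of each cluster. Those that overlap the Hox gene not reported singly are left out. The regions that ranked higher or lower, and the one near Hoxc12, were named after their values were seen. The members, the lists of other genes and the tests were chosen with earlier results of these data known. Scripts used Python 3.11.15, pandas 2.3.3 and NumPy 2.4.6, and were tested on simulated peaks.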

Additional observations from a re-analysis of the deposited data

How the results depend on the processing

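The alternatives were a −log10 q of at least 5, equal list lengths, a merge gap of 1000 bp, peaks covering at least 50% of a region, no flank, a flank of 50 kb, each library left out in turn, and a replicate block. Alternatives for single clusters, single regions, counts of genes in every or no list and the width rank were chosen after seeing the data. Of 77 recomputed differences between LncMyoD-KD and Ctrl, 68 kept their direction, 1 was 0 (MyoD peaks without Ctrl library 2) and 8 reversed. The smallest exact permutation p was 0.333. Some of the 68 could not change, so their number does not measure stability. By construction the replicate block and the 50% rule leave these differences as they are. The same holds for the merge gap with the median percentile and for the flank with the gene count. The cause of the changes was not tested.

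The difference in median percentile (5.92) was -5.37 with the stricter q and -3.16 with equal list lengths, and the difference in MyoD peaks (-0.5) was 0.5 with equal list lengths. Regions ranked higher numbered 0 with equal list lengths and 2 with the 50 kb flank, against 1. Regions ranked lower numbered 1 with the stricter q, against 3. Regions of Ctrl alone numbered 1 with the stricter q, with equal list lengths and with the 1000 bp gap, and 0 with 50% coverage, against 2. The width rank of the broad Hoxc region was 4 with the 1000 bp gap, against 1.

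With 1 library left out, the coverage difference ranged from -3.55 to 0.217, the gene difference from -4.5 to 0.5, the percentile difference from -0.67 to 12.5 and the MyoD difference from -1 to 0. Regions ranked higher ranged from 2 to 9 and ranked lower from 4 to 9. The rules for ranked regions and for regions of one group alone then compare fewer libraries, so their counts can rise for that reason alone. H3K27ac regions of Ctrl alone ranged from 2 to 11 and of LncMyoD-KD alone from 0 to 3, MyoD regions of Ctrl alone from 0 to 2 and of LncMyoD-KD alone from 0 to 1, and the width rank from 1 to 26. The coverage difference ranged from -7.66 to 0.813 in the Hoxc window and from -0.164 to 0.632 in the Hoxd window.

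The replicate block (4 assignments, smallest exact permutation p 0.5) left the differences at -1.66 for coverage, -2 for genes, 5.92 for percentile and -0.5 for MyoD peaks, with no call. The labels do not say that same-numbered libraries belong together, and the correlation of their deviations was -0.0263 for H3K27ac and 0.0911 for MyoD.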

Other observations

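Beyond the windows, H3K27ac and MyoD regions returned at different distances from each cluster. The nearest H3K27ac region of all 4 lists lay 118 kb and 31.8 kb from the outermost Hoxb genes. Around the Hoxd cluster it lay 88.8 kb beyond Hoxd13, over Lnpk, and 60.5 kb beyond Hoxd1, over Mtx2, a pair of genes that flank the cluster. These regions had fold enrichments of 6.55 and 4.34 in LncMyoD-KD and 5.21 and 5.62 in Ctrl at Lnpk, and 7.82 and 5.99 in LncMyoD-KD and 7.81 and 7.10 in Ctrl at Mtx2. A MyoD region of all 4 lists (chr2:74647885-74648297) lay 19.9 kb beyond Hoxd13, with fold enrichments of 7.0 and 6.27 in LncMyoD-KD and 4.96 and 7.29 in Ctrl.

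Among the nearest MyoD regions of all 4 lists on each side of the clusters, the highest fold enrichments belonged to one 108 kb beyond Hoxa13 (chr6:52368635-52369536), with 16.9 and 16.1 in LncMyoD-KD and 16.9 and 16.6 in Ctrl, inside an H3K27ac region of all 4 lists. A MyoD region 52.5 kb beyond Hoxc4 (chr15:103089390-103090175) had 11.1 and 9.40 in LncMyoD-KD and 11.6 and 10.3 in Ctrl, and also lay inside an H3K27ac region of all 4 lists.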
